A study of Mus musculus with 15 samples.

Results

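The genes described here are the 58 cytochrome P450 genes of families 1 to 4 that were detected in sorted mouse liver cells. They were chosen by name from a table of 24493 genes, in which 79 rows carried a P450 symbol of families 1 to 4. Cyp2e1 and Cyp1a2 were set aside, 19 rows did not reach a TPM of 1 in at least 3 of the 15 libraries, and 58 did. TPM is a relative abundance that is corrected for transcript length and scaled to 1 total in every library, so levels of different genes can be compared on it. By subfamily the 58 were 1 Cyp1a gene, 4 Cyp2a, 3 Cyp2b, 13 Cyp2c, 8 Cyp2d, 3 Cyp2j, 7 Cyp3a, 6 Cyp4a, 6 Cyp4f and 1 gene each of Cyp2f, Cyp2g, Cyp2r, Cyp2s, Cyp2u, Cyp4b and Cyp4v. Of them, 41 reached 1 TPM in all 15 libraries. Just inside the limit lay Cyp4f18 (3 libraries, highest value 2.21 TPM, all in 1 group) and Cyp2b13, Cyp2d11 and Cyp2d12 (4 libraries each). Just outside it lay Cyp2c65 (2 libraries, highest value 1.22 TPM), Cyp4a30b (1 library, 1.45 TPM) and Cyp1b1 (1 library, reprogrammed library 1, 5.14 TPM). Of the 19 left out, 5 were listed at 0 in every library.

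Gene expression was measured by RNA sequencing in 5 groups of 3 libraries from cells sorted directly from mouse liver. Untreated mice gave hepatocytes and biliary epithelial cells. DDC-fed mice, which were put on the chow at an age of 5 weeks and kept on it for 4 weeks, gave hepatocytes, biliary epithelial cells and reprogrammed cells. All groups, the untreated ones included, carried AAV-TBG-Cre given at 4 weeks of age, an adeno-associated virus that expresses Cre recombinase from the hepatocyte-specific TBG promoter and was used to label cells. The labels name no strain, sex, reporter allele or sorting marker, give no age for the untreated mice, and do not say that libraries of a group came from separate animals, so p-values measure the spread between these libraries.

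P450 enzymes are heme proteins of the endoplasmic reticulum that insert 1 atom of oxygen into a substrate, with electrons passed on by P450 oxidoreductase. Families 1 to 3 mainly oxidise drugs, toxins and steroids and are induced through the receptors AHR, CAR and PXR, whereas family 4 enzymes mainly hydroxylate the end of fatty acid and eicosanoid chains and several are targets of PPAR alpha. Hepatocytes are the main site of these enzymes, and many are restricted to one zone of the liver lobule or to one sex in mice. DDC is a dihydropyridine that P450 enzymes attack: its breakdown alkylates their heme, and the modified porphyrin inhibits ferrochelatase, the last enzyme of heme synthesis, so that porphyrin builds up in bile and injures the ducts.

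The results below turn on 6 members that behaved differently, and their promoters are shown so that their motif letters can be read side by side. Each line gives the 250 bases before the RefSeq transcription start on the gene's strand, 5′ to 3′ (GRCm38.p6). Capitals mark the TATA box letters TATAAA, the hepatocyte nuclear factor 4 element CAAAGTCCA and the GC box letters GGGCGG on either strand (a GC box on the other strand reads CCGCCC). None of these letters overlapped. Cyp3a11 is the most abundant member, Cyp2c67 is a hepatocyte member that fell under DDC, Cyp2b10 is the member that rose most, and Cyp2s1, Cyp4b1 and Cyp4f16 are the members with calls above hepatocytes.
Cyp3a11 (chr5:145879855-145880104, minus strand): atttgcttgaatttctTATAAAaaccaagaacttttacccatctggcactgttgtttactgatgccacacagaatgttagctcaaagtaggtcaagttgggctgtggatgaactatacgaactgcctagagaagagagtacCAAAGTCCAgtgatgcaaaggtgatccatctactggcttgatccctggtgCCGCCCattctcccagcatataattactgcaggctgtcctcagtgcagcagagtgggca
Cyp2c67 (chr19:39649043-39649292, minus strand): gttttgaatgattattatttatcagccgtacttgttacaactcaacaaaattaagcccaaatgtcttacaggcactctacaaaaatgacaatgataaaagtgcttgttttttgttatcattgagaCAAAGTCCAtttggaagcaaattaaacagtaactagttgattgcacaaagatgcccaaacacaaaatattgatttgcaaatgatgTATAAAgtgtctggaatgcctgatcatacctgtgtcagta
Cyp2b10 (chr7:25897408-25897657, plus strand): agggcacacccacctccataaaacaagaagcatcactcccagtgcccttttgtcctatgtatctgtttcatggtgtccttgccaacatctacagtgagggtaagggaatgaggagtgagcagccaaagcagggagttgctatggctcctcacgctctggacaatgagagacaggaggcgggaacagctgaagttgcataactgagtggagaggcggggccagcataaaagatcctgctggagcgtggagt
Cyp2s1 (chr7:25816526-25816775, minus strand): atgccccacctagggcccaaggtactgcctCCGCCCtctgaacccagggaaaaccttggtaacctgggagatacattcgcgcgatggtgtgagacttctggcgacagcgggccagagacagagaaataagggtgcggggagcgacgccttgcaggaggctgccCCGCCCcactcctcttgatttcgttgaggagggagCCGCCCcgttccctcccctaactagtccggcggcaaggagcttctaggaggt
Cyp4b1 (chr4:115647722-115647971, minus strand): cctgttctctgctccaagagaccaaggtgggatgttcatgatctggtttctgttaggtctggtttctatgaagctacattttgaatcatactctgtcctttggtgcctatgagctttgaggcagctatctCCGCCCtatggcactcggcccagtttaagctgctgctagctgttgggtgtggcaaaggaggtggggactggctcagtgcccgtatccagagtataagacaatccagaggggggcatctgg
Cyp4f16 (chr17:32536307-32536556, plus strand): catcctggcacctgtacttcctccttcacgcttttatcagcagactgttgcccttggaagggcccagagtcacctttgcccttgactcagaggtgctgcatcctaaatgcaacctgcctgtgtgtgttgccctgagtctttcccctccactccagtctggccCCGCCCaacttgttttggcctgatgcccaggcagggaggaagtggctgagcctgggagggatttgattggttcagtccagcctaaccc
Cyp3a11 held TATAAA 234 bases before its start, CAAAGTCCA 109 bases before it and 1 GC box. Cyp2c67 held TATAAA 40 bases and CAAAGTCCA 125 bases before its start. The Cyp2s1 window held 3 GC boxes and neither of the other motifs, the Cyp4b1 and Cyp4f16 windows held 1 GC box each, and the Cyp2b10 window held none of the 3. Promoters of 45 of the 58 members were found in the RefSeq table, as 50 windows of 300 bases that run to 50 bases past the start. TATAAA stood in 23 of these 50 windows (46%) and in 13.6% of all 32851 promoters, CAAAGTCCA in 7 (14%) against 0.475%, and GGGCGG in 9 (18%) against 35.7%. Neighbouring members descend from duplicated genes and are not independent, and a match describes letters only, not a bound factor.

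The labels were checked against marker genes. Hepatocyte libraries were low in the 8 biliary markers (summed TPM of 10.7 to 13.9 without DDC, with Krt7 and Cftr listed at 0, and 194 to 385 with DDC), which summed to 14273 to 17308 in untreated biliary, 4630 to 14660 in reprogrammed and 10915 to 19270 in DDC biliary libraries. Biliary and reprogrammed libraries also held much hepatocyte RNA: the 9 measured hepatocyte markers summed to 46145 to 53775 TPM in untreated biliary libraries against 92714 to 100577 in untreated hepatocytes, and to 24648 to 47262 in DDC biliary and 38868 to 90244 in reprogrammed libraries against 67548 to 110920 in DDC hepatocytes. P450 levels in those libraries therefore stand beside these values, and how much of them came from hepatocytes or their RNA was not tested. In such bulk samples, fewer cells of a type and less RNA per cell cannot be told apart. DDC biliary library 3 stood apart in stellate and fibroblast markers (122 TPM summed, against 18.8 and 28.2 in the other two) and endothelial markers (39.7 against 13.2 and 16.1). DDC hepatocyte library 1 stood apart in the macrophage marker Cd68 (24.4 against 3.95 and 4.17), which carried the sum of that list (28.7 against 9.40 and 10.6). Without Cd68 the sum was not higher in library 1. The 4 neutrophil markers summed to 0.632 to 1.12 TPM in untreated and 7.54 to 10.3 in DDC hepatocytes, and to 0.357 to 1.98 in untreated and 30.9 to 44.1 in DDC biliary libraries. The 2 that were tested, S100a8 and S100a9, rose with DDC in each cell type. Ly6g, which was too low to be tested, did not follow in hepatocytes. Its group mean, scaled as described below, went from 1.42 to 1.01 in hepatocytes and from 0.357 to 0.550 in biliary libraries. Retnlg, also not tested, went from 0 to 0.124 and from 0 to 0.471. The part of neutrophils in the P450 differences was not tested. Xist was at most 0.0448 TPM in any library while the 4 Y-linked genes were detected in all 15. TPM keep no read totals, so the depth is unknown.

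Levels below are TPM divided by 1 scale factor per library (0.558 to 1.64), which brings the median gene of all libraries to 1 level, and a difference is that of the group means on the log2(scaled TPM + 1) scale, where changes of low genes come out too small. On TPM as deposited the median gene lay 1.11 higher (log2) in untreated biliary cells than in hepatocytes, 1.06 higher in the same comparison under DDC and 0.71 higher in reprogrammed cells, set against DDC hepatocytes. A gene was called, and is said to have risen or fallen, at a limma adjusted p under 0.05 over all 13905 genes tested and a difference of at least 1 in size.

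The 58 genes made up 1.70% to 1.80% of all TPM in untreated hepatocytes and 1.62% to 1.96% in DDC hepatocytes, so their sum stayed in the same range. Their share was 0.68% to 0.80% in untreated biliary, 0.90% to 1.59% in reprogrammed and 0.46% to 0.88% in DDC biliary libraries. A few genes made up most of it. Cyp3a11, the main drug-metabolising CYP3A enzyme of mouse liver, gave 27.7% of the members' TPM in untreated hepatocytes, followed by Cyp2c29 (11.4%), a fatty acid epoxygenase, the male-biased steroid hydroxylase Cyp2d9 (8.5%) and Cyp2f2 (6.02%), which oxidises naphthalene. In DDC hepatocytes Cyp3a11 gave 34.2%, Cyp2c29 17.9%, the coumarin hydroxylase Cyp2a5 6.55% and Cyp2c50 5.17%. At the other end, Cyp1a1, the AHR-induced enzyme that oxidises polycyclic hydrocarbons, stayed low: 0.542, 0.585 and 0.770 scaled TPM in untreated hepatocytes and 1.51, 1.81 and 3.86 in DDC hepatocytes. Cyp2g1, an enzyme best known from olfactory mucosa, stayed between 0 and 4.40 in all 15 libraries.

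**Figure D1:**
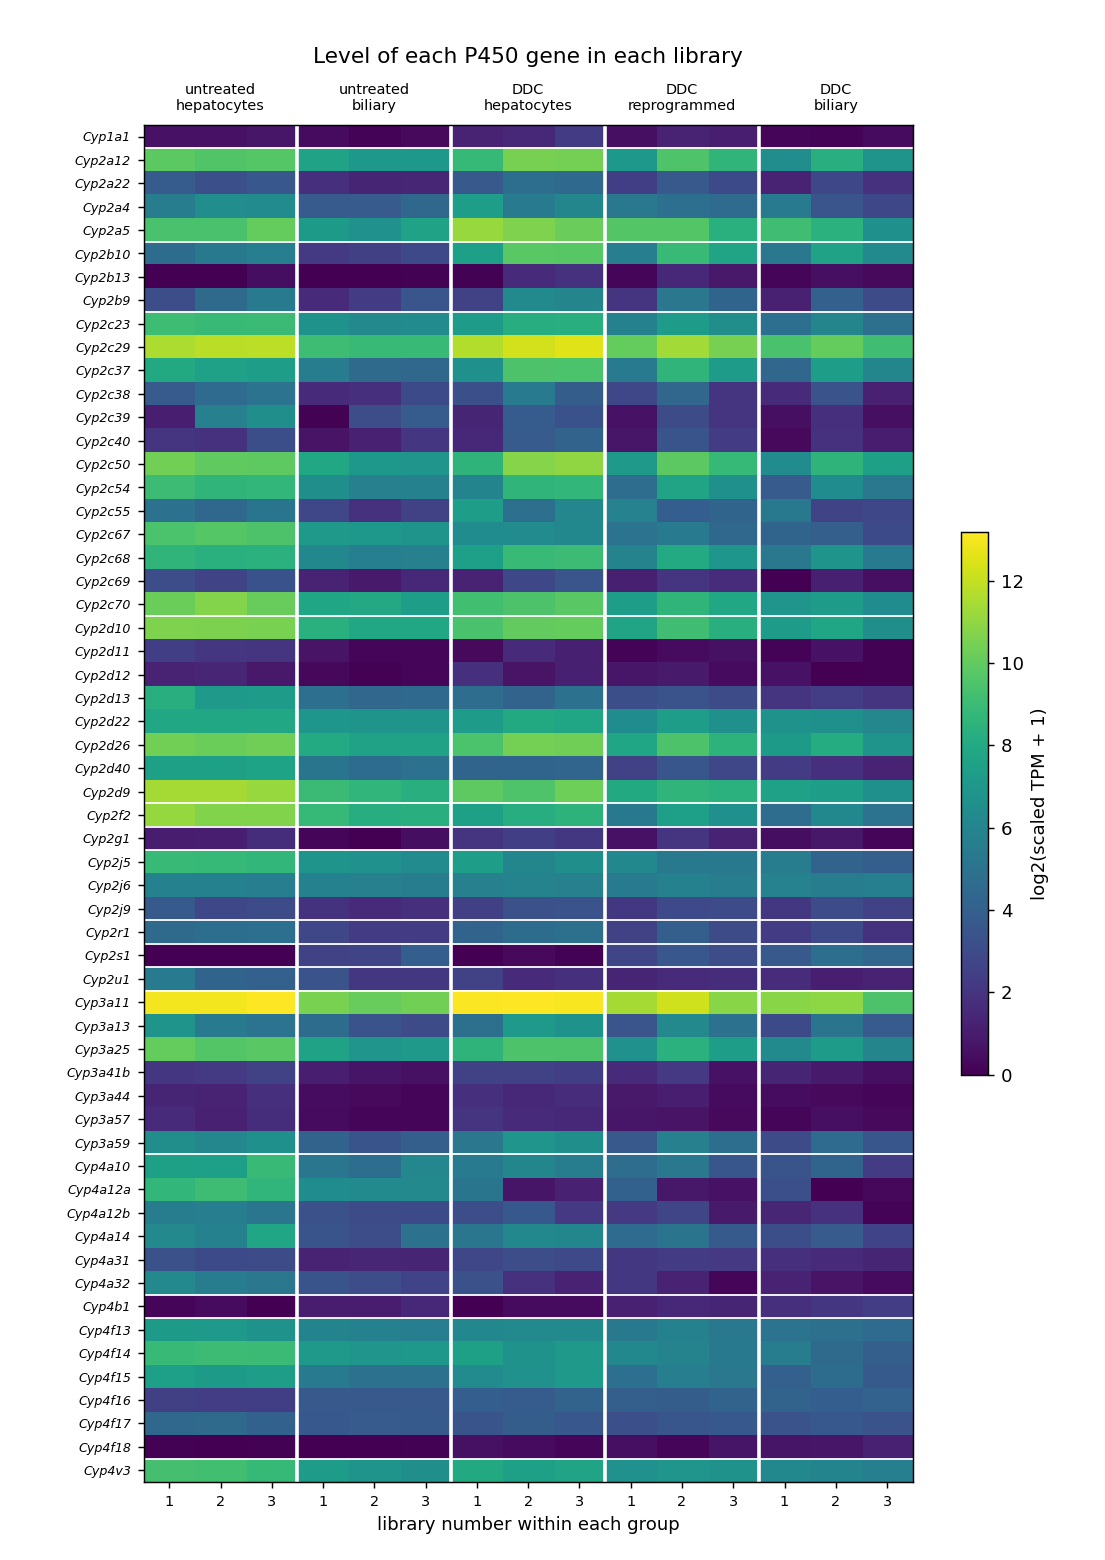
Log2(scaled TPM + 1) of the 58 P450 genes (rows, by subfamily) in the 15 libraries (columns, by group and library number), with white lines between groups and subfamilies. Cyp3a11 and Cyp2c29 are the brightest rows in every group, most rows are darker in biliary than in hepatocyte columns, and Cyp2s1 and Cyp4b1 show the opposite.

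The first comparison asked which P450 genes distinguish biliary cells from hepatocytes in untreated liver. Of the 58 members, 45 were lower and 2 were higher in biliary libraries, where 15.6% of all tested genes were called lower and 21.6% higher. Their median difference was -2.23, against 0.12 over all genes. Lower calls took in 4 of 4 Cyp2a, 11 of 13 Cyp2c, 7 of 8 Cyp2d, 7 of 7 Cyp3a and 5 of 6 Cyp4a genes, but 1 of 3 Cyp2b and 3 of 6 Cyp4f genes. Cyp3a11 was at 8003, 7766 and 9276 scaled TPM in the 3 hepatocyte libraries and at 1478, 1126 and 1346 in the biliary ones. The groups were far apart, with a difference of -2.67, SE 0.39, adjusted p = 4.97e-05. The steepest fall between the cell types was that of Cyp2d13, from 313, 139 and 153 to 27.2, 19.6 and 21.4 (-3.01, SE 0.28, adjusted p = 8.72e-07). Cyp2c29 went from 3066, 3547 and 3704 to 537, 469 and 463 (-2.81, SE 0.33, adjusted p = 7.14e-06). Among the other members named by size, Cyp2c50, Cyp2c54 and Cyp2c37, neighbouring epoxygenase genes, differed by -2.85, -2.78 and -2.78, Cyp4a14, a fatty acid hydroxylase, by -2.76, and Cyp2c70, which makes muricholic bile acids, by -2.66. The call of Cyp2c37 was lost without untreated biliary library 3 (-2.56, adjusted p = 0.055) or untreated hepatocyte library 1 (-2.61, adjusted p = 0.0512). Quantile normalization, which forces all libraries onto 1 distribution, took Cyp3a11 to -0.76 (adjusted p = 0.0603) and also ended the calls of Cyp2c37 and Cyp2c54. On TPM as deposited 25 members were called (21 lower, 4 higher), 50 of 58 still lay lower, and 2 of the lower calls, Cyp2d22 and Cyp4f13, changed sign. The share of all genes called on that scale is not given, and its median gene lay 1.11 higher in biliary cells.

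Most members stood at a similar percent of the hepatocyte level in biliary libraries. On TPM as deposited, 41 members averaged at least 10 TPM in untreated hepatocytes, and their level in untreated biliary libraries was a median of 41.3% of the hepatocyte mean, with quartiles of 38% and 50.6%. The 9 hepatocyte markers stood at a median of 48.2% (40.8% to 56.8%). Under DDC, 37 members stood at a median of 35.9% in biliary libraries, beside 34.6% for the markers, and at 65.4% in reprogrammed libraries, beside 70.9%. DDC biliary libraries 1, 2 and 3 differed when each was set against the hepatocyte library of its number. The members stood at 42.5%, 43.8% and 23.6%, and the markers at 36.7%, 43.6% and 22.4%. In untreated biliary libraries the lower quartile of the members lay under the lowest marker, with Cyp3a11 at 38.0% and Cyp2c29 at 34.3%. A few members lay far above the markers. Cyp2j6, an arachidonic acid epoxygenase found in many tissues, stood at 233% in untreated biliary, 200% in DDC biliary and 150% in reprogrammed libraries, and Cyp4f17, Cyp2d22 and Cyp4f13 at 148%, 120% and 103% in untreated biliary libraries. On the scaled values Cyp2j6 ran from 44.0 to 59.5 over all 15 libraries, the groups overlapped, and its difference between untreated cell types was -0.05, SE 0.11, adjusted p = 0.686, so that its sign depends on the scaling. The same holds for Cyp4f17, Cyp2d22 and Cyp4f13. Their scaled means were 19.9, 233 and 129 in untreated hepatocytes and lower, at 12.2, 116 and 54.9, in untreated biliary libraries.

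**Figure D2:**
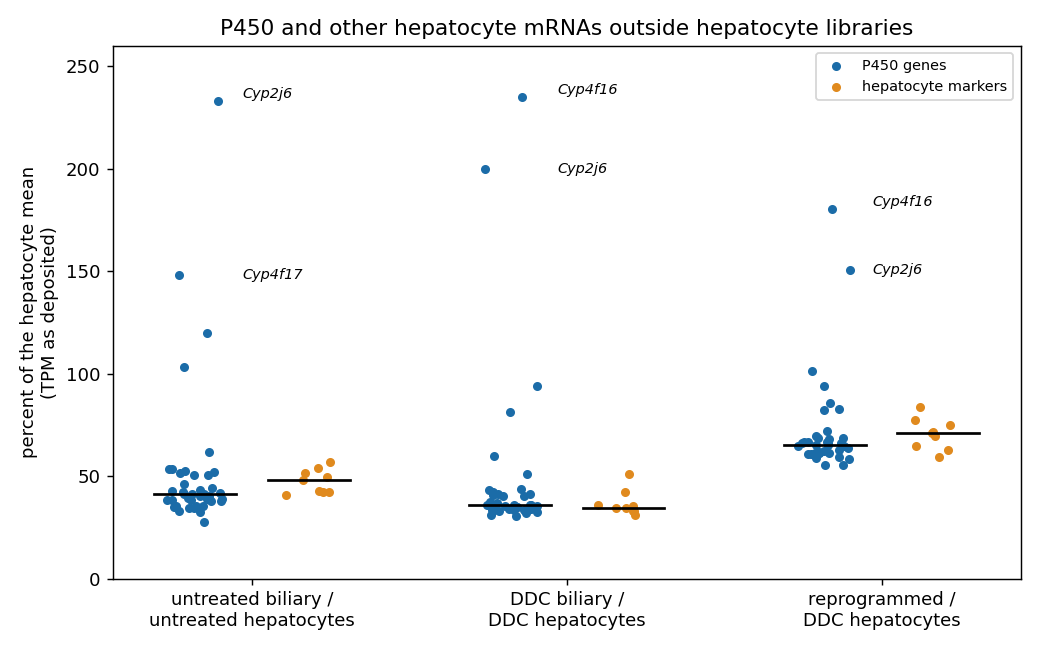
TPM as deposited in biliary or reprogrammed libraries as a percent of the mean of the matching hepatocyte group (vertical axis, linear), for P450 genes (blue) and hepatocyte marker genes (orange) of at least 10 TPM in that hepatocyte group; bars are medians. Most P450 points lie in the range of the markers under DDC, and many lie below that range in untreated libraries. Cyp2j6 and, under DDC, Cyp4f16 are the highest.

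Cyp2s1, Cyp4b1 and Cyp4f16 went the other way. Cyp2s1, an epithelial P450 that metabolises retinoids and eicosanoids and responds to AHR, was listed at 0 in all 3 untreated hepatocyte libraries and at 4.97, 5.43 and 14.5 scaled TPM in untreated biliary ones. In DDC hepatocytes it was at 0.0248, 0.258 and 0.0553, in reprogrammed libraries at 5.85, 10.8 and 7.71 and in DDC biliary libraries at 11.9, 26 and 19.8. Every biliary or reprogrammed library was thus above every hepatocyte library. Its difference of 3.07, SE 0.35, adjusted p = 5.41e-06 between untreated cell types depends on the pseudocount, since 1 side is at 0. Cyp4b1, which activates furans and aromatic amines and is best known from lung, was low throughout: 0.185, 0.296 and 0 in untreated hepatocytes, 1.06, 1.01 and 1.86 in untreated biliary, 0, 0.293 and 0.324 in DDC hepatocytes, 1.32, 1.74 and 1.61 in reprogrammed and 2.40, 3.25 and 4.34 in DDC biliary libraries. All 9 biliary and reprogrammed libraries lay above all 6 hepatocyte libraries, but the untreated difference of 0.98, SE 0.20, adjusted p = 6.77e-04 fell short of the size needed for a call. Cyp4f16, a member of the eicosanoid hydroxylase cluster, was at 4.73, 4.32 and 4.40 in untreated hepatocytes and 11.7, 11.9 and 11.6 in untreated biliary libraries, with no overlap (1.22, SE 0.12, adjusted p = 1.54e-06). With a pseudocount of 5 or quantile normalization that difference was 0.82 or 0.59, below the size needed.

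**Figure D3:**
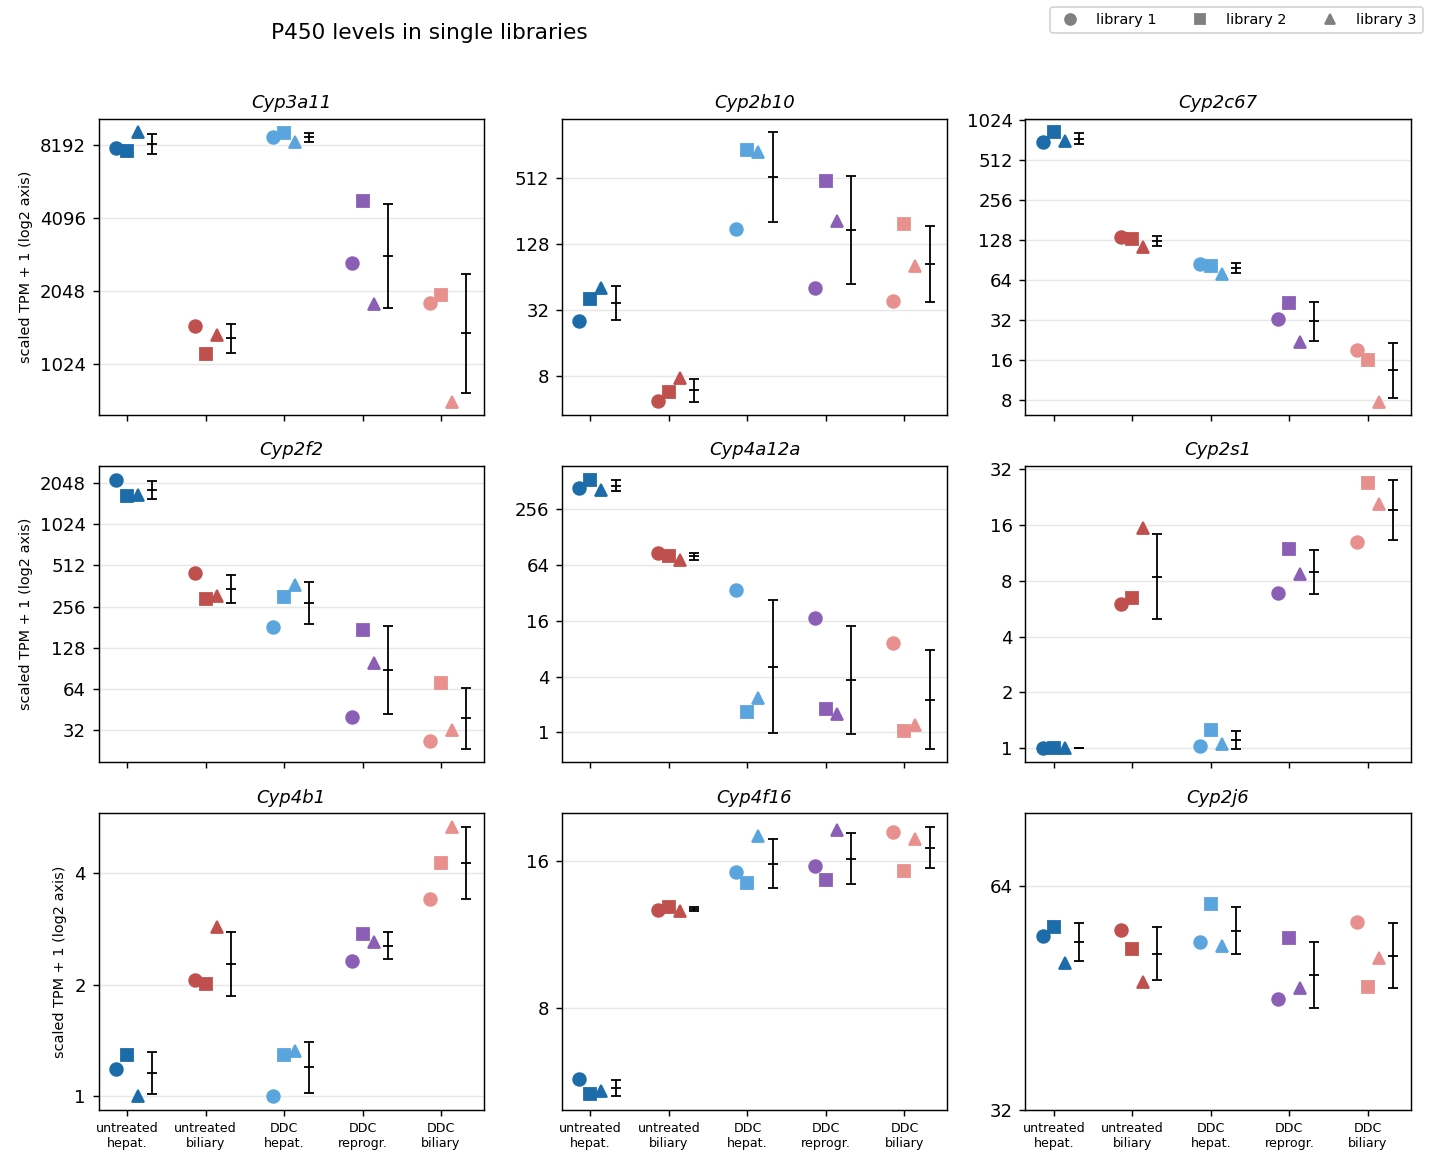
Scaled TPM + 1 (log2 axis) of 9 P450 genes in each library (circle, square and triangle for libraries 1, 2 and 3), with the mean ± SD of the 3 log2 values in black. Cyp3a11, Cyp2c67, Cyp2f2 and Cyp4a12a are highest in untreated hepatocytes or in both hepatocyte groups, Cyp2s1 and Cyp4b1 have their highest mean in DDC biliary libraries, and Cyp2j6 keeps 1 level.

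The second comparison asked how hepatocytes changed their P450 genes after DDC. Of the 58 members, 14 fell and 2 rose, where 4.42% of all genes fell and 6.59% rose, and the members' median difference was -0.17. Those that fell were 4 of 6 Cyp4a genes (Cyp4a10, Cyp4a12a, Cyp4a12b and Cyp4a32), 4 of 8 Cyp2d (Cyp2d9, Cyp2d11, Cyp2d13 and Cyp2d40), Cyp2c67, Cyp2j5 and Cyp4f14, and Cyp2f2, Cyp2u1 and Cyp4v3, each the only member of its subfamily. None of the 7 Cyp3a and none of the 4 Cyp2a genes was called by limma, with 0 of the 6 measured members of the PXR-responsive list at an unadjusted p under 0.05.

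The largest fall was that of Cyp4a12a, a male-biased fatty acid hydroxylase that makes a vasoconstrictor from arachidonic acid. It was at 429.7, 534 and 412 scaled TPM in untreated hepatocytes and at 33.4, 0.678 and 1.33 in DDC hepatocytes. Library 1 kept part of the level and libraries 2 and 3 were near 0 (-6.48, SE 1.16, adjusted p = 0.00129). Cyp4a12b, its neighbour, went from 44.8, 49.2 and 35.1 to 7.52, 11.4 and 3.51 (-2.48, SE 0.50, adjusted p = 0.00275), and Cyp4a32 from 73.6, 46.7 and 37.0 to 8.57, 2.64 and 1.52 (-3.53, SE 0.52, adjusted p = 3.26e-04). Cyp4a12a and Cyp4a12b share 62.2% and 62.9% of their 31-base transcript words with each other, and Cyp4a32 shares 49.2% with Cyp4a10, so that the split of reads within each pair is uncertain. Of the 4 members listed as PPAR alpha-responsive, Cyp4a10 and Cyp4a32 fell, and Cyp4a14 (71.5, 53.8 and 216 to 35.0, 69.7 and 66.1) and Cyp4a31 (difference -0.13) were not called. Untreated hepatocyte library 3 was the highest of all for Cyp4a10 and Cyp4a14.

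Cyp2c67 fell evenly. It was at 698, 832 and 711 in untreated hepatocytes and at 83.5, 81.0 and 70.3 in DDC hepatocytes, with little spread in either group (-3.24, SE 0.29, adjusted p = 6.48e-06). Its close relatives Cyp2c40, Cyp2c68 and Cyp2c69 were not called (differences 0.80, -0.01 and -0.53), although 67.6% of the words of Cyp2c67 occur in other P450 genes, which leaves its level uncertain. Cyp2d40 was as even, from 176, 176 and 201 to 18.3, 18 and 18.9 (-3.26, SE 0.26, adjusted p = 2.33e-06), and Cyp2d13 went from 313, 139 and 153 to 25.3, 17.5 and 29.2 (-2.95). Cyp2f2, whose transcript shared no 31-base word with another P450 gene, went from 2163, 1636 and 1668 to 182, 299.6 and 364 (-2.73, SE 0.48, adjusted p = 0.00108). Cyp2j5, an epoxygenase shared by liver and kidney, went from 467, 462 and 422 to 158, 65.7 and 92.7 (-2.17), and Cyp2u1, a fatty acid hydroxylase, from 42.6, 18.3 and 15.2 to 4.80, 2.02 and 2.58 (-2.59).

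Cyp2b10, the classic CAR target, rose most. It was at 24.1, 39.3 and 49.2 in untreated hepatocytes and at 172, 911 and 876 in DDC hepatocytes. All 3 DDC values lay above the untreated ones, library 1 much less so than the other two (3.81, SE 0.82, adjusted p = 0.00413). It was the only called gene of the 8 measured members listed as induced through CAR. Cyp2c55 (1.27, adjusted p = 0.231) and Cyp2b13 (1.03, adjusted p = 0.0749) lay higher and Cyp2c54 lower (-1.04, adjusted p = 0.403) without passing the test. The second rise was that of Cyp4f16, from 4.73, 4.32 and 4.40 to 14.2, 13.4 and 17.0 (1.53, SE 0.12, adjusted p = 1.76e-06). Cyp3a11 was at 8832, 9184 and 8470, inside the untreated range (0.08, SE 0.39). Cyp1a1 was 1 unit higher with an adjusted p of 0.00723, just under the size needed. Without the DDC libraries numbered 1, an alternative chosen after the values were seen, 7 members rose and 13 fell, where 6.97% of all genes rose and 5.13% fell.

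By sex bias, all 3 male-biased members (Cyp2d9, Cyp4a12a and Cyp4a12b) fell under DDC in hepatocytes and again in biliary libraries. Of all genes, 4.42% fell in hepatocytes and 4.74% in biliary libraries. Cyp2d9 was at 2734, 2692 and 2260 in untreated and 946, 756 and 1229 in DDC hepatocytes (-1.41, SE 0.26, adjusted p = 0.00156). Of the 7 measured female-biased members, 0 were called by limma in either cell type, with 1 at an unadjusted p under 0.05 in hepatocytes and 0 in biliary libraries. Their median difference was 0.22 in hepatocytes.

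The same comparison was made in biliary libraries. Of the 58 members, 13 fell and 2 rose, where 4.74% of all genes fell and 5.68% rose (10.4% in all), and 13 members were called in both cell types. Cyp2b10 rose from 3.71, 4.74 and 6.59 to 37.8, 192 and 78.5 (3.83, SE 0.82, adjusted p = 0.00422). Cyp4a12a fell from 84.9, 79.6 and 71.9 to 8.30, 0.0252 and 0.214 (-5.14, SE 1.16, adjusted p = 0.00597) and Cyp2c67 from 134, 129 and 113 to 18.1, 15 and 6.74 (-3.24, SE 0.29, adjusted p = 6.19e-06). Further members that fell were Cyp2f2 (-3.13), Cyp2d40 (-3.10), Cyp2d13 (-2.41), the leukotriene hydroxylase Cyp4f14 (-2.30), Cyp2j5 (-2.06) and Cyp4a10 (-2.03), of which the last lost its call without untreated biliary library 3 (-1.65, adjusted p = 0.0776) or DDC biliary library 3 (-1.54, adjusted p = 0.0875). Across the 58 genes the responses of the 2 cell types, which share no library, had a Pearson r of 0.943 and a Spearman rho of 0.904, 43 differed by at most 0.5 and 50 by at most 1, and 50 had the same sign. These values and the 13 shared calls are descriptions over related genes, not tests. No such values over all genes stand beside them, so agreement particular to P450 genes is not shown. Hepatocyte markers fell in 2 of 9 cases in either cell type, and the part of hepatocyte RNA in the biliary response was not tested.

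The direct test of the difference between the 2 responses called 1 member of 58, where 8.4% of all genes were called (4.94% higher and 3.46% lower). With the library number as a block, 6 members (10.1% of all genes) were called within treatment and 4 (9.03%) over all samples. The 5 added by the block within treatment were Cyp1a1, Cyp2d11, Cyp2u1, Cyp4a12a and Cyp4a32. The member called without a block was Cyp4f16, which rose by 1.53 in hepatocytes and differed by 0.42 in biliary libraries (11.7, 11.9 and 11.6 without and 17.4, 14.3 and 16.7 with DDC), a difference of 1.11, SE 0.17, adjusted p = 8.80e-04. After DDC its hepatocyte values of 14.2, 13.4 and 17.0 overlapped those of reprogrammed and biliary libraries. Cyp2s1 rose in biliary libraries (1.20, SE 0.35, adjusted p = 0.0220) and not in hepatocytes, but its difference between responses was not called (-1.06, adjusted p = 0.200). The rise of Cyp2s1 was lost when untreated biliary library 1 or 2, or DDC biliary library 2 or 3, was left out (adjusted p = 0.0719 to 0.0993).

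**Figure D4:**
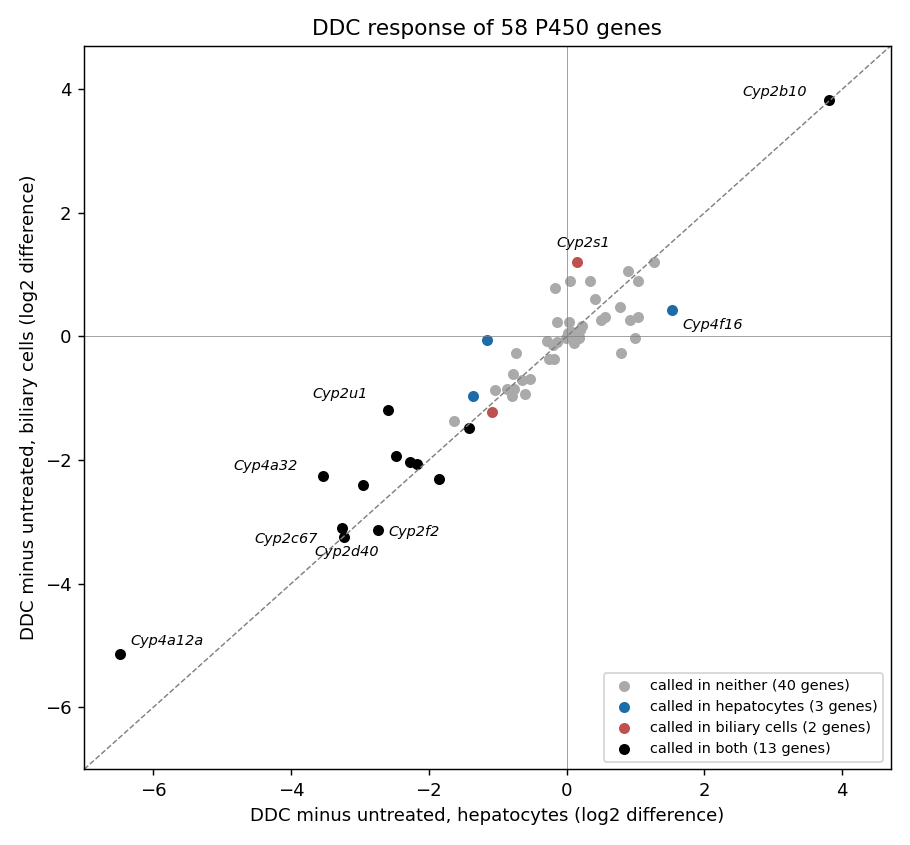
DDC response of each of the 58 P450 genes in hepatocytes (horizontal axis) and in biliary libraries (vertical axis), as log2 differences of scaled TPM + 1, coloured by where the gene was called; the dashed line marks equal responses. Most genes lie near the line, from Cyp4a12a at the lower left to Cyp2b10 at the upper right, and Cyp4f16 lies below it.

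The third comparison placed the reprogrammed cells between hepatocytes and biliary cells of DDC mice. Against DDC hepatocytes 21 members were lower and 2 higher, where 5.77% of all genes were lower and 13.7% higher, and the median difference was -1.15. Against DDC biliary cells 10 were higher and 1 lower, where 2.78% were higher and 0.734% lower, and the median was 1. Same-numbered libraries of these groups deviated together, and with the library number as a block the counts were 35 lower and 2 higher against hepatocytes, where 6.53% of all genes were lower and 13.9% higher in that fit, and 29 higher and 1 lower against biliary cells, where 4.09% were higher and 0.863% lower. DDC biliary cells set directly against DDC hepatocytes had 44 members lower and 2 higher, where 14.4% of all genes were lower and 20.2% higher.

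Cyp3a11 was at 8832, 9184 and 8470 in DDC hepatocytes, 2677, 4815 and 1807 in reprogrammed and 1825, 1974 and 718 in DDC biliary libraries. The hepatocyte values lay above all others, and reprogrammed library 3 lay among the biliary values. Its difference from hepatocytes was -1.63, SE 0.39, adjusted p = 0.00430. Cyp3a25 differed by -1.71, Cyp2d9 by -1.55, Cyp2c70 by -1.53, Cyp2c29 by -1.52 and Cyp2f2 by -1.62. On TPM as deposited 47 of 58 members still lay lower, none of the 21 lower calls remained, and the 2 higher calls did. Those were Cyp2s1 (3.01, SE 0.35, adjusted p = 1.87e-05) and Cyp4b1 (1.09, SE 0.20, adjusted p = 6.91e-04), which lay between the other DDC groups: reprogrammed Cyp2s1 was below every DDC biliary library (-1.12, SE 0.35, adjusted p = 0.0477). In DDC biliary libraries they exceeded DDC hepatocytes by 4.13 and 1.83. Quantile normalization took the difference of Cyp4b1 between reprogrammed cells and hepatocytes to 0.32 (adjusted p = 0.363) and that of Cyp3a11 to -0.52 (adjusted p = 0.216), and Cyp4b1 fell under the size needed without DDC hepatocyte library 1 (0.97). Cyp2f2 lost its call without DDC hepatocyte library 3 (-1.41, adjusted p = 0.0562) or reprogrammed library 1 (-1.05, adjusted p = 0.063).

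The members higher in reprogrammed than in DDC biliary libraries were Cyp2c23, Cyp2c67, Cyp2d9, Cyp2d40, Cyp2d10, Cyp2c70, Cyp2c29, Cyp4f15, Cyp4f14 and Cyp2d13, by 1.04 to 1.28. Cyp2c67, for example, was at 31.4, 42.1 and 21.0 in reprogrammed and 18.1, 15 and 6.74 in DDC biliary libraries, with no overlap (1.24, SE 0.29, adjusted p = 0.0177). With the library number as a block, all named calls that could be tested were kept, and leaving out libraries was not tried in that fit. In the fit without a block, these calls depended on single libraries. Limma called 0 members (16 at an unadjusted p under 0.05), and 0.741% of all genes, without DDC biliary library 3, which was highest of its group in stellate and endothelial markers and lowest in P450 share, and 0 (16 again), and 0.992% of all genes, without reprogrammed library 2, which had the highest P450 share of its group. The lower call of Cyp2s1 was lost without DDC biliary library 2 or 3 or any 1 reprogrammed library (adjusted p = 0.0717 to 0.158). Of the 9 hepatocyte markers, 6 were higher in this comparison and 8 were lower in reprogrammed cells than in DDC hepatocytes; their part in the P450 differences was not tested.

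Reprogrammed libraries differed in how much P450 they held, and did so together. As a share of the DDC hepatocyte library of the same number, the 37 members of at least 10 TPM stood at a median of 62.4% in library 1, 81.1% in library 2 and 53.3% in library 3. The hepatocyte markers gave 64.8%, 84.9% and 63.7% in the same libraries. Cyp4f16, the highest member, stood at 180% over the 3, and Cyp3a25, the lowest, at 55.4%.

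Under DDC, libraries of 1 group differed in many P450 genes. Of the members with a mean of at least 10 scaled TPM, the SD of the log2 values exceeded 1 in 27.5% (11 of 40) in DDC hepatocytes, 33.3% (11 of 33) in reprogrammed and 25.8% (8 of 31) in DDC biliary libraries. Of all genes of that level, 4.06%, 2.98% and 2.31% did. In untreated libraries the figures were 7.14% of members against 2.11% of genes in hepatocytes and 0% against 1.47% in biliary cells. Across the 58 genes, same-numbered libraries of different cell types deviated from their group means together, at correlations of 0.53 to 0.93 among DDC groups and 0.76 to 0.90 between the untreated groups; libraries of different numbers gave -0.87 to 0.63. In the DDC groups library 1 set this pattern. It was at least 1 log2 unit above the mean of libraries 2 and 3 in each of the 3 DDC cell types for Cyp2c55 and Cyp4a12a, and at least 1 unit below for Cyp2a12, Cyp2b9, Cyp2b10, Cyp2c37, Cyp2c40, Cyp2c50, Cyp2c54 and Cyp3a13, genes picked after their values were seen. Cyp2c55, a linoleic and arachidonic acid hydroxylase, was at 166, 28.5 and 66.7 in DDC hepatocytes, 57.3, 14.6 and 18 in reprogrammed and 39.1, 5.58 and 6.27 in DDC biliary libraries. Cyp2c37 ran the other way, at 97.5, 729 and 697 in DDC hepatocytes, 42.2, 389 and 157 in reprogrammed and 19.6, 161 and 64.7 in DDC biliary libraries. Cyp2c50 followed Cyp2c37, with 379, 1774 and 2011 in DDC hepatocytes. Whether a number stands for 1 animal is not in the labels.

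**Figure D5:**
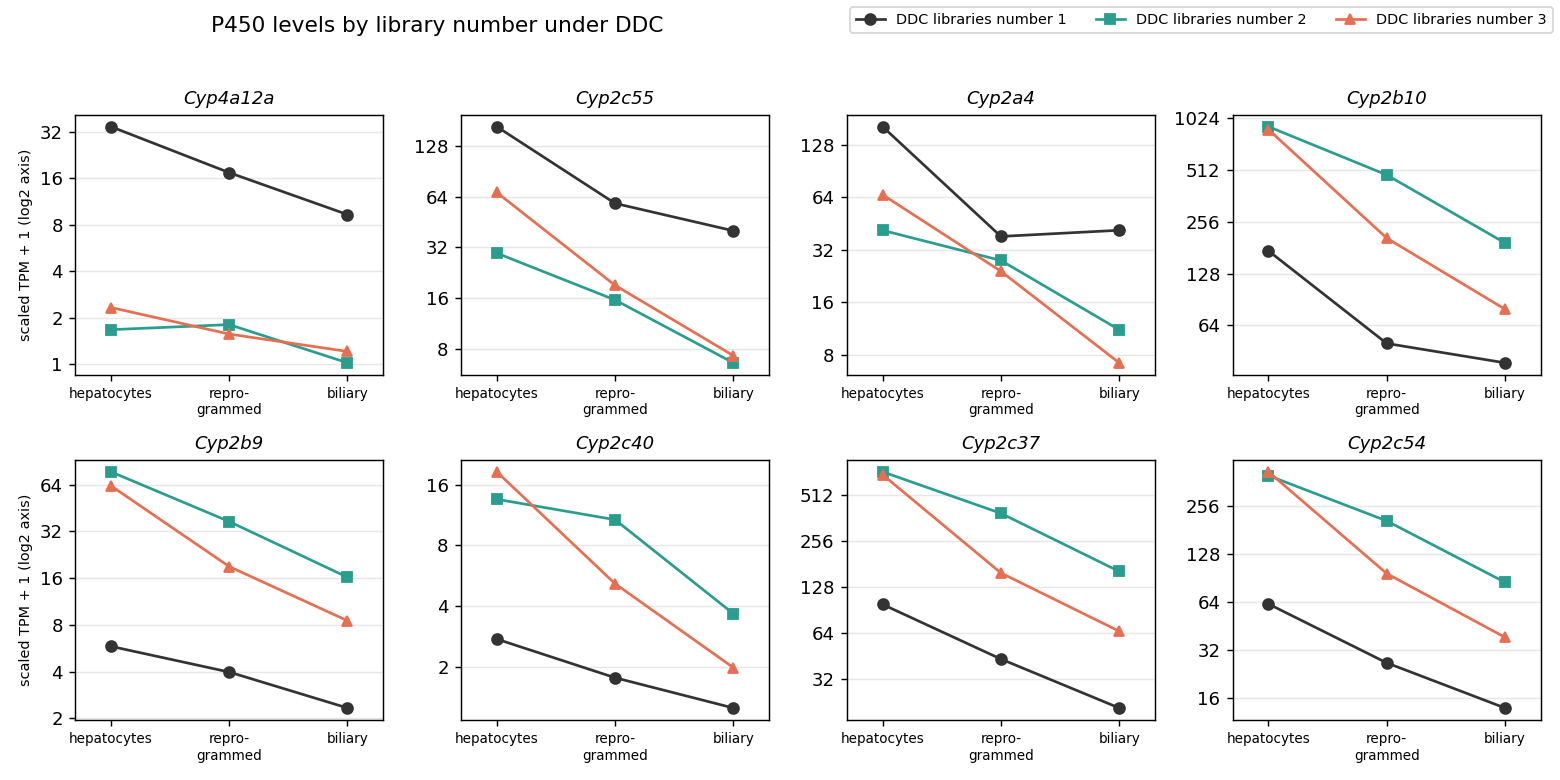
Scaled TPM + 1 (log2 axis) of 8 P450 genes in the DDC libraries, with lines joining the libraries of the same number across hepatocytes, reprogrammed cells and biliary cells. Number 1 (black) is highest for Cyp4a12a, Cyp2c55 and Cyp2a4 and lowest for the other 5 genes in all 3 cell types.

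Some members vary within untreated groups too. Cyp2c39, a retinoic acid hydroxylase, was at 1.19, 52.0 and 92.7 in untreated hepatocytes and 0.0504, 7.51 and 13.5 in untreated biliary libraries. In both cell types library 1 was far below the other two, and no difference between groups was called for it. Cyp2b9, a female-biased steroid hydroxylase, was at 7.59, 22.6 and 42.2 in the hepatocyte and at 2.01, 4.07 and 9.95 in the biliary libraries, with library 1 again the lowest.

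The genes that supply and control P450 enzymes were followed as lists. In untreated biliary libraries 9 of 13 measured xenobiotic receptors and partners were lower than in hepatocytes and 0 were higher, with Nr1i3 furthest apart (-2.91). Of all genes, 15.6% were lower and 21.6% higher there. In DDC hepatocytes 6.59% of all genes rose and 4.42% fell. Of the same 13, 0 rose and 1 fell in DDC hepatocytes: Nr0b2, the SHP corepressor (-1.68, adjusted p = 0.0104). Nr1i2, which encodes PXR, was at 76.6, 68.0 and 71.0 in untreated and 61.2, 61.5 and 72.6 in DDC hepatocytes, and Nr1i3, which encodes CAR, at 222, 160.4 and 163 in untreated and 83.3, 162 and 163 in DDC hepatocytes. Neither was called, nor were Ahr (0.02), Ppara (-0.76, adjusted p = 0.0789) or Rxra (-0.20). In biliary libraries Ahr rose, from 13.1, 13.6 and 16.3 to 33.7, 40.8 and 41.9 (1.37, SE 0.13, adjusted p = 1.06e-05), and the test between the cell types called its response different (-1.36, adjusted p = 4.26e-04). Nr0b2 and Nr1h3, the LXR alpha gene, fell there (-2.75 and -1.02). Nr1h3 was not called without untreated biliary library 1 (-0.88) or DDC biliary library 3 (-0.73). In reprogrammed cells 6 of the 13 lay below DDC hepatocytes, among them Nr1i3 (-1.68), Nr1h3 (-1.3), Ppara (-1.21) and Rxra (-1.15), with Nr1i2 at -1.07. Of all genes, 5.77% were lower in that comparison.

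Por, the reductase that feeds electrons to all these enzymes, rose in DDC hepatocytes from 171, 153 and 149.5 to 307, 692 and 605 (1.67, SE 0.43, adjusted p = 0.0113), with library 1 again the lowest. In biliary libraries it differed by 0.81 (adjusted p = 0.183). Of the 6 electron donors and membrane partners, Cyb5b, a cytochrome b5 of the outer mitochondrial membrane, fell in hepatocytes (-1.42). Of 12 genes of heme synthesis and breakdown, 1 rose and 2 fell in DDC hepatocytes, where 6.59% of all genes rose and 4.42% fell. Such short lists were not tested as sets. Hmox1, the heme oxygenase, rose from 10.1, 5.01 and 5.83 to 83.9, 10.5 and 27.5 (1.98, SE 0.56, adjusted p = 0.0186), highest in the library that stood apart in Cd68. Its call was lost without untreated library 2 or 3 (adjusted p = 0.0649 and 0.0530) and its difference was 1.24 without DDC library 1 (adjusted p = 0.0479). Cpox and Ppox, late steps of heme synthesis, fell (-1.08 and -1.22), though Cpox was not called without DDC library 2 (-0.998). Alas1, the rate-limiting first step, was at 144, 348 and 179.9 without and 258, 414 and 463 with DDC and was not called (0.82, adjusted p = 0.137), and Fech, which encodes ferrochelatase, was at 118, 121 and 113 without and 105, 117 and 114 with DDC (-0.07). In biliary libraries Hmox1 rose as well (2.71).

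Beyond families 1 to 4, 1 of 13 measured P450 genes rose and 3 fell in DDC hepatocytes. The shares of all genes there were 6.59% and 4.42%, and the lists of this paragraph were not tested as sets. Those that fell were Cyp7b1 and Cyp8b1, enzymes of bile acid synthesis (-4.34 and -4.0), and the cholesterol hydroxylase Cyp46a1 (-1.07), and Cyp39a1 rose (1.28). The call of Cyp39a1 was lost without untreated library 1 or 2 or DDC library 2 or 3 (adjusted p = 0.0839 to 0.0931), and that of Cyp46a1 without untreated library 2 or DDC library 1, where its differences were -0.97 and -0.90. Of 3 measured AHR targets outside the members, Nqo1, a quinone reductase that NRF2 also induces, rose in hepatocytes (2.37) and biliary libraries (1.34). Of 8 PPAR alpha targets outside the members, 1 rose and 1 fell in hepatocytes: the hormone gene Fgf21 (2.31) rose, and the acyl-CoA thioesterase Acot1 (-3.08) fell.

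Position and sequence were described last. Members were chosen by family symbol and neighbours descend from duplicated genes, so shared sequence and nearby positions come with that choice. Of the 58, 57 were found in the mm10 annotation. Cyp2d13 was not, so the 31-base words that it shares with other P450 genes were not counted. Chromosome 19 held 13 Cyp2c genes (chr19:39007019-44029208), chromosome 7 held 11 members and chromosome 4 held 10. There were 7 Cyp3a genes on chromosome 5, 7 Cyp2d genes on chromosome 15 and 5 Cyp4f genes on chromosome 17. Most lay in clusters. Cyp2c23 (chr19:44005022-44029208), Cyp2r1 (chr7:114549682-114562972) and Cyp3a13 (chr5:137892932-137921619) lay apart from the other members on their chromosomes. Cyp2u1 was the only member on chromosome 3 and Cyp1a1 the only one on chromosome 9. Chromosome 8 held Cyp4v3 and Cyp4f18, far from each other. Chromosome 4 held its Cyp2j and Cyp4 genes in separate stretches. Members of 1 cluster did not move as 1 under DDC. On chromosome 7, Cyp2s1 (chr7:25802475-25816913, minus strand) differed by 0.15 in hepatocytes, its neighbour Cyp2b10 (chr7:25897620-25926624, plus strand) by 3.81 and Cyp2f2 (chr7:27119909-27133660, plus strand) by -2.73. In the Cyp2c cluster Cyp2c67 fell while Cyp2c29 was not called (0.41, adjusted p = 0.389). Of 57 members with annotated transcripts, 11 shared more than 50% of their 31-base words with other P450 genes, 27 more than 25% and 16 less than 5%. Levels of the first set, such as Cyp3a41b (95.9%), Cyp2c40 (72.6%) and Cyp2a4 (58.1%), depend on how the software split shared reads, whereas Cyp2s1, Cyp2f2, Cyp2u1 and Cyp2j5 shared 0% to 2.94%.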

How the data were processed

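RNA was sequenced from 15 libraries of sorted mouse liver cells. The authors deposited TPM per gene, made with Salmon on mm10, per the submitters' processing notes; the version and settings of Salmon are not given in the sources used here. From these, TPM were divided by 1 median-ratio factor per library (from 11924 genes), and log2(scaled TPM + 1) was fitted with limma 3.58.1 in R 4.3.3 (1 fit of 5 groups, mean-variance trend, 10 residual degrees of freedom) over the 13905 genes with at least 1 TPM in at least 3 libraries, with Benjamini-Hochberg adjustment over all of them. The procedure was tested on simulated data. TPM carry no read totals, so the depth and the counting error behind a value are unknown.

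Members and gene lists were chosen with earlier results of these data known. One gene of the pathway lists is not reported here and is left out of its list's counts. Named genes were, per comparison, up to 8 called members per direction with the largest differences and a mean of at least 10 scaled TPM, members called against the majority, the highest member of each subfamily, those nearest the filter, up to 4 called genes per pathway list, and Por, Nr1i2, Nr1i3, Ahr, Ppara, Rxra, Alas1, Fech and Hmox1; further members were named after their values were seen, as parts of a list or as neighbours. Library numbers come from the sample titles, which do not say what they stand for. Over all genes, same-numbered libraries deviated from their group means together for untreated hepatocytes and biliary cells (correlations of 0.150 to 0.236), DDC hepatocytes and reprogrammed cells (0.136 to 0.449) and reprogrammed and DDC biliary cells (0.208 to 0.456). For DDC hepatocytes and biliary cells they ran from 0.0436 to 0.319. The lowest, for the libraries numbered 3, was little above the highest correlation between different numbers (0.0304). Shared 31-base words were counted over GENCODE transcripts, and promoters were read from RefSeq. Alternatives covered scaling, pseudocount, filter, samples fitted, variance model, threshold, library number as a block, and each library left out.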

Additional observations from a re-analysis of the deposited data

Results flagged for a closer look

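Of the 58 P450 genes, Cyp4f16 had a DDC response that differed between the cell types by the test of the difference itself. It was 1.53 higher with DDC in hepatocytes and 0.42 higher in biliary libraries, a difference of 1.11 (SE 0.17, limma adjusted p = 0.00088), and all 3 DDC hepatocyte libraries lay above all 3 untreated ones. The adjusted p was at most 0.03 under every alternative run, and the difference fell under the size needed for a call with quantile normalization (0.63) and with a pseudocount of 5 (0.73). Of its 31-base transcript words, 26.7% occur in other P450 genes, so its level depends in part on how shared reads were divided.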

How the results depend on the processing

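None of the 60 named differences that were tested changed sign under any alternative. The counts of members in this section stand without the shares of all genes called in the same setting. They show how far the calls depend on the setting, not how members compare with other genes. On TPM as deposited the calls numbered 25 (4 higher, 21 lower) for untreated biliary cells against hepatocytes, 29 (3 and 26) for DDC biliary cells against DDC hepatocytes, 2 (2 and 0) for reprogrammed cells against DDC hepatocytes, 2 (0 and 2) for reprogrammed against DDC biliary cells and 2 (1 and 1) for the difference between responses; 18 of the 60 named calls were lost. Quantile normalization gave 5 for reprogrammed against DDC biliary cells and 0 by limma for the difference between responses (6 at an unadjusted p under 0.05), with 21 named calls lost. Reprogrammed against DDC biliary cells gave 6 with a pseudocount of 0.1, 6 with a pseudocount of 5 and 5 with no filter. With only the groups compared in the fit, limma called 15 for reprogrammed cells against DDC hepatocytes and 0 (18 at an unadjusted p under 0.05) against DDC biliary cells. With the library number as a replicate block within treatment, these 2 counts were 37 and 30, and 6 for the difference between responses; with the block over all samples the last was 4. Either block kept all named calls it could test. Leaving out the 3 DDC libraries numbered 1 together, chosen after seeing the data, gave 17 for reprogrammed against DDC biliary cells and 4 for the difference between responses.

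Leaving out 1 library at a time, the calls ranged from 44 to 49 for untreated biliary cells against hepatocytes, 40 to 48 for the same comparison under DDC, 17 to 31 for reprogrammed cells against DDC hepatocytes, 0 to 16 against DDC biliary cells, 16 to 18 for DDC in hepatocytes, 11 to 18 for DDC in biliary libraries and 1 to 3 for the difference between responses. The causes were not tested. The files hold 3 libraries a group and no read totals, so counting error is unknown.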
